A study of Mus musculus with 12 samples.

Results

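Matrix metalloproteinases are zinc enzymes that cut collagens, elastin and other proteins of the tissue between cells, and most are made as inactive precursors that another protease must trim. The tissue inhibitors of metalloproteinases (TIMPs) bind the active enzymes and block them. Macrophages are a known source of several of these enzymes, and Adam17, a related membrane protease, releases Tnf and other proteins from the cell surface. The 10 genes described here are 6 metalloproteinases (Mmp8, Mmp9, Mmp12, Mmp13, Mmp14 and Mmp19), 3 inhibitors (Timp1, Timp2 and Timp3) and Adam17, taken by gene symbol from 18193 genes measured. Each gene was read from the probe set, a group of array probes for 1 transcript region, with the highest mean over the arrays, and the other probe sets served as a check. The 10 genes have 24 probe sets, and 4 of them, Mmp8, Mmp12, Mmp13 and Timp1, have only 1.

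The cells were macrophages of C57Bl/6 mice, grown from bone marrow with macrophage colony-stimulating factor (M-CSF) and exposed to lipopolysaccharide (LPS), a component of Gram-negative bacteria. Restimulated cells had 100 ng/ml LPS for 18 h, then fresh medium and 2 h without LPS, then 100 ng/ml LPS again. Pretreated cells had the 18 h of LPS and the 2 h of rest but no second LPS. Cells of the LPS once group had no LPS in the first 18 h and received 100 ng/ml LPS after the rest, and untreated cells received none. How long the final LPS step lasted is not stated in the labels. Each group has 3 biological replicates lettered A, B and C, 12 arrays in all, and the labels do not say whether the letters stand for separate mice, so p-values measure the spread between these cultures.

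Median intensities were 29.7 to 31.7 on 11 arrays and 31.4 on the restimulated C array. The restimulated C array stood apart in its mean, 246.7 intensity units against 310.04 to 316.98 on the others. Its 75th percentile was also lower, at 119.94 against 156.07 to 206.96, so its brighter values tend to be low. Summed intensities of 8 macrophage markers were 56578 to 65194 in restimulated, 61546 to 63640 in pretreated, 55480 to 57140 in LPS once and 58544 to 59684 in untreated cells. All 8 had a group mean of at least 100 in some group. The replicate letters also differed. Summed markers of fibroblasts and stromal cells, 8 genes, were 2541 to 8769 on the 8 arrays lettered A and B and 271.2 to 919.6 on the 4 arrays lettered C. Timp1 and Timp3 also differed by letter, and the marker values are given beside them below.

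The text turns first on Mmp13 and Mmp14, the metalloproteinases that rose after a single LPS exposure, and on Timp2, the inhibitor that fell. The sequences before their transcription starts are printed to show what the 3 genes hold there. RefSeq windows of the mouse assembly GRCm38.p6 were at hand for 8 of the 10 genes, with none for Mmp9 and Mmp19. Each window printed holds the 250 bases before the start, written from 5′ to 3′ on the gene's own strand. Capitals mark matches, on either strand, to TGANTCA (the binding motif of AP-1 factors), TATAAA (the TATA box), AGGAAG (a motif of Ets factors such as PEA3) or the NF-kappaB consensus. The windows are chr9:7272264-7272513 on the plus strand for Mmp13, chr14:54431348-54431597 on the plus strand for Mmp14 and chr11:118355412-118355661 on the minus strand for Timp2.
Mmp13: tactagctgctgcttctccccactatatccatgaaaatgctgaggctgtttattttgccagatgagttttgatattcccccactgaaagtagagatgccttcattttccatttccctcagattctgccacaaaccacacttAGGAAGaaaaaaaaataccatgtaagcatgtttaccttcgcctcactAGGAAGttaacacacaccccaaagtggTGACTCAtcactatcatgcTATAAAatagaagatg
Mmp14: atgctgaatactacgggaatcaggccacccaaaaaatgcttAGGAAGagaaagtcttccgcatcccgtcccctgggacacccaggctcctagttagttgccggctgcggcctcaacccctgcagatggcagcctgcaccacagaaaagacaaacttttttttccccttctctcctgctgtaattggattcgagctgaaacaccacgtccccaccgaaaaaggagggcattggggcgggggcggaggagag
Timp2: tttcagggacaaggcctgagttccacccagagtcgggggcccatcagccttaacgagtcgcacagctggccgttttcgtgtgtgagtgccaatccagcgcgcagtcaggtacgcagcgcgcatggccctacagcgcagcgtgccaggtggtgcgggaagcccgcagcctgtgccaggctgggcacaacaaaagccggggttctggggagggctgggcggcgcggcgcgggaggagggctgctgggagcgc

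The Mmp13 window held TGANTCA at bases -35 to -29, counted back from the start, TATAAA at bases -16 to -11 and AGGAAG at 2 places. The Mmp14 window held AGGAAG at 1 place and none of the other motifs, and the Timp2 window held none of the 4. Of all 32851 windows of this length, 6.75% held TGANTCA, 12.4% TATAAA, 29.5% AGGAAG and 7.25% the NF-kappaB consensus. Among the other 5 genes with a window, Mmp12 had TGANTCA in 1 of its 2 windows and the NF-kappaB consensus in the other, and AGGAAG stood in at least 1 window of each. These matches describe the letters only.

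The first comparison set cells given LPS once against untreated cells. A gene was called changed when limma's p, adjusted by Benjamini and Hochberg over all genes, was under 0.05 and the change was at least 2-fold on the log2(intensity + 16) scale. By this rule 2 of the 10 genes, Mmp13 and Mmp14, were higher, where 3.9% of all genes were, and 1, Timp2, was lower, where 9.1% were. The median log2 change was 0.69 over the 10 genes and 0.04 over all genes.

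Mmp13 encodes collagenase 3, which cuts fibrillar collagen. Its intensity was 6957, 6792 and 7146 on the A, B and C arrays of cells given LPS once, against 42.2, 147.4 and 45.2 in untreated cells. The groups lay far apart. The log2 change was 6.39 ± 0.78 (standard error, 3 arrays in each group, adjusted p = 0.000248 in limma), or 83.6-fold. The log2 values had an SD of 0.04 after LPS once and 0.84 in untreated cells.

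Mmp14 encodes membrane-type 1 metalloproteinase, which is held at the cell surface and activates other metalloproteinase precursors. It had 3022, 3659 and 3611 intensity units after LPS once and 887.9, 878.9 and 674.1 in untreated cells. Every LPS array was above every untreated array, with a log2 change of 2.06 ± 0.19 (standard error, 3 arrays in each group, adjusted p = 4.89e-05 in limma), or 4.17-fold. Both other Mmp14 probe sets were also called higher, with log2 changes of 2.24 and 2.41. The calls of Mmp13 and Mmp14 in this comparison held under every alternative that was run.

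Timp2 encodes an inhibitor that also takes part, together with Mmp14, in the activation of the gelatinase precursor proMMP2. Its brightest probe set read 1347, 1406 and 1095 in cells given LPS once, against 3396, 3233 and 2649 in untreated cells. The groups did not overlap, and the log2 change was -1.26 ± 0.41 (standard error, 3 arrays in each group, adjusted p = 0.0401 in limma), or 2.39-fold lower. All letters moved alike, with differences of -1.32 in A, -1.19 in B and -1.26 in C. Of the other 5 probe sets of Timp2, 1 stayed at 13.15 to 18.04 on all arrays, and the other 4 had log2 changes of -0.68 to -1.45, of which 2 were called. The adjusted p passed 0.05 when any of 7 arrays was left out, namely any LPS once or untreated array or pretreated C, with values from 0.0574 to 0.118.

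**Figure D1:**
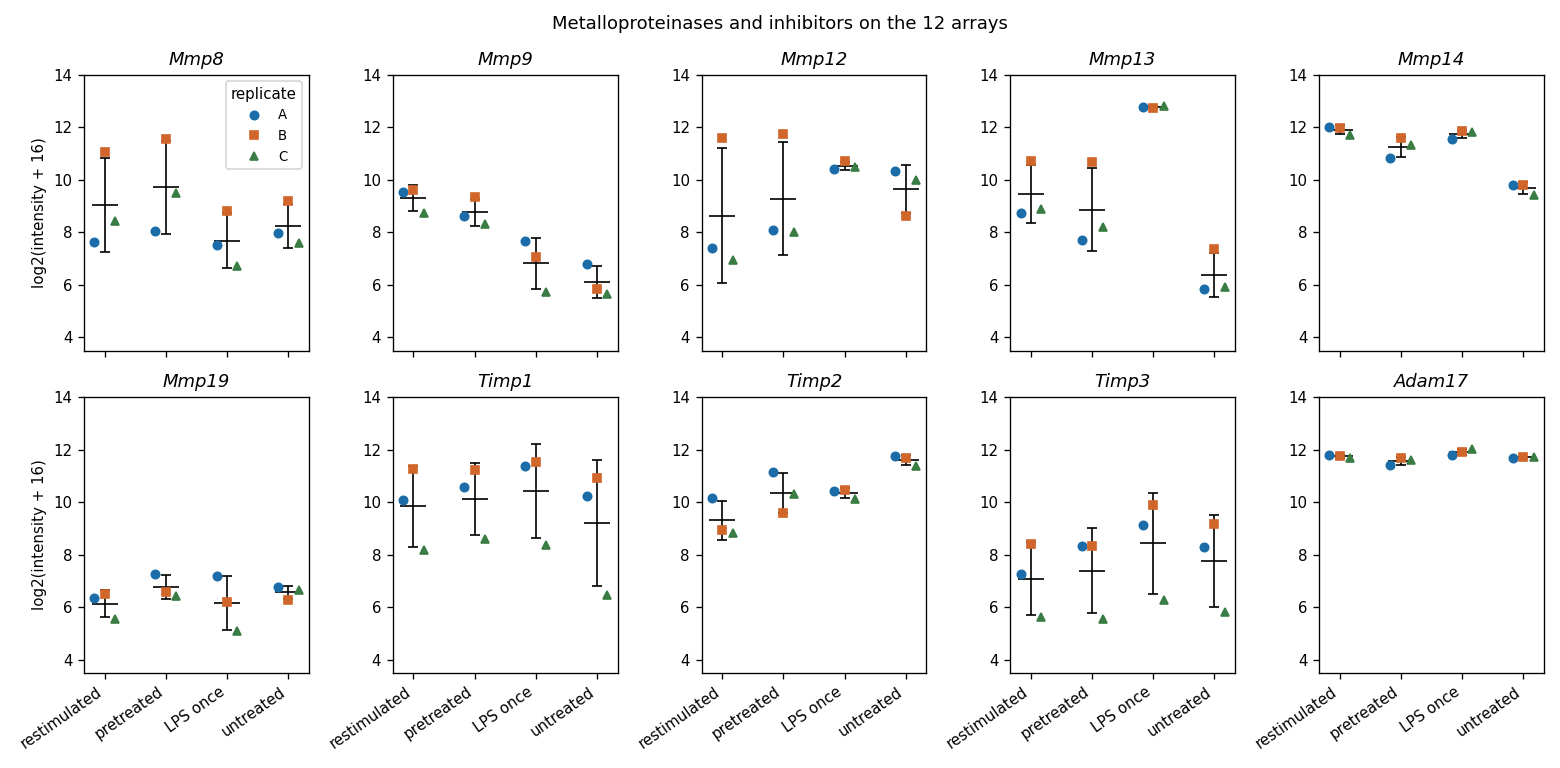
Log2(intensity + 16) of the 10 genes on the 12 arrays, with 1 point per array marked by replicate letter and the mean ± SD of each group in black (n = 3). Mmp13 reached 12.77 on average after LPS once, Timp1 and Timp3 were lowest on the C array in every group, and Mmp8 and Mmp12 were highest on the B array of the pretreated and the restimulated group.

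The other 7 genes were not called in the first comparison. Adam17 was bright and steady, at 3543, 3804 and 4121 after LPS once and 3261, 3340 and 3345 in untreated cells, a log2 change of 0.20 ± 0.08 (standard error, 3 arrays in each group, adjusted p = 0.0864 in limma). Mmp9, gelatinase B, had 185.8, 117.9 and 37.2 against 96.2, 42.2 and 34.5 in untreated cells, and these groups overlapped. Mmp12, the macrophage elastase, had 1348, 1670 and 1404 after LPS once, against 1283, 375.4 and 999.6, with no overlap but a log2 change of 0.89 ± 1.28. That standard error pools all 4 groups, and the SD of log2 Mmp12 was 2.56 in restimulated and 2.14 in pretreated cells, against 0.16 after LPS once and 0.91 in untreated cells. Mmp19, a secreted metalloproteinase, was dim throughout. It read 65.6, 74.4 and 30.2 in restimulated, 138.0, 79.8 and 70.2 in pretreated, 128.4, 57.6 and 18.2 in LPS once and 93.3, 61.4 and 83.4 in untreated cells, and all groups overlapped. It was not called in any comparison.

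Pretreated cells were next set against untreated cells, which asks what was left 2 h after an 18 h exposure had ended. Its untreated arrays are those of the first comparison. Mmp9 and Mmp14 were called higher, 2 of the 10 genes, where 0.291% of all genes were, and 0 were called lower, where 0.308% were. At an unadjusted p under 0.05 limma had 3 of the 10 higher and 1, Timp2, lower. The share of all genes at this looser threshold was not counted, here or below, so such counts have nothing to be read against. The median log2 change was 0.56 over the 10 genes and 0.02 over all genes.

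Mmp9, which cuts gelatin and basement membrane collagen, had 383.1, 632.4 and 302.6 intensity units in pretreated cells and 96.2, 42.2 and 34.5 in untreated cells. All pretreated arrays were higher, by 1.83 in A, 3.48 in B and 2.66 in C on the log2 scale. The log2 change was 2.66 ± 0.51 (standard error, 3 arrays in each group, adjusted p = 0.0489 in limma), or 6.3-fold. The call was close to the threshold: it was lost with any of 9 arrays left out, all but LPS once A, LPS once C and restimulated C, at adjusted p from 0.065 to 0.194, and it had an adjusted p of 0.00808 with the replicate letter as a block. The second Mmp9 probe set had a log2 change of 2.87 and was called in a fit of all named probe sets (limma adjusted p = 0.0405), where the brighter one was not (0.0586).

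Mmp9 is also abundant in osteoclasts and neutrophils. Summed markers of osteoclasts, 7 genes of which Calcr, Oscar, Ocstamp and Dcstamp stayed under a group mean of 100, were 2321 to 3262 in pretreated cells and 667 to 1131 in untreated cells. The members did not move together. Acp5, an acid phosphatase, was 2115 to 2996 in pretreated and 256.8 to 467.9 in untreated cells, whereas Atp6v0d2, a proton pump subunit, was lower, at 92.4, 48.8 and 65.8 in pretreated against 411.6, 130.6 and 466.8 in untreated cells. Of the 7, 1 was called higher, where 0.291% of all genes were. With the replicate block 1 was also called lower, where 0.533% of all genes were. Neutrophil markers, 7 measured, summed to 187.1 to 386 in pretreated and 197.8 to 1170 in untreated cells, and Elane, Mpo, Cxcr2 and Cd177 stayed under a group mean of 100. Mmp9 was also higher in restimulated cells than after LPS once, where the osteoclast sums were 1638 to 2811 and 1732 to 3354. The part of either list in the Mmp9 results was not tested.

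Mmp14 had 1830, 3069 and 2540 intensity units in pretreated cells against 887.9, 878.9 and 674.1 in untreated cells. The groups did not overlap, and the log2 change was 1.57 ± 0.19 (standard error, 3 arrays in each group, adjusted p = 0.00451 in limma), or 2.97-fold. A second probe set was also called, and the third had a log2 change of 1.82 without a call (limma adjusted p = 0.0906). Mmp13 was not called, although all its pretreated values, 192.8, 1610 and 278.7, lay above the untreated ones. Its log2 change was 2.48 ± 0.78 (standard error, 3 arrays in each group, adjusted p = 0.221 in limma), and B was several times brighter than A and C. Timp2 had 2227, 752.6 and 1247 in pretreated cells, all below the untreated arrays, and a log2 change of -1.25 ± 0.41 without a call (limma adjusted p = 0.239).

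The third comparison, restimulated against pretreated cells, measured the response to the second LPS. Limma called 0 of the 10 genes higher, where 0.665% of all genes were, and 0 lower, where 1.29% were. At an unadjusted p under 0.05, 1 gene was higher, Mmp14, and 1 lower, Timp2. The median log2 change was -0.30 over the 10 genes and -0.02 over all genes.

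Mmp13 read 411.5, 1683 and 463.2 in restimulated cells and 192.8, 1610 and 278.7 in pretreated cells. Each letter was higher after the second LPS, by 1.03 in A, 0.06 in B and 0.70 in C, and the groups overlapped. The log2 change was 0.60 ± 0.78 (standard error, 3 arrays in each group, adjusted p = 0.707 in limma). Mmp14 read 4150, 4060 and 3349 against 1830, 3069 and 2540 in pretreated cells, without overlap, a log2 change of 0.66 ± 0.19 (standard error, 3 arrays in each group, adjusted p = 0.0838 in limma). Mmp9 read 723.3, 777.3 and 408 against 383.1, 632.4 and 302.6, a log2 change of 0.53 ± 0.51 (standard error, 3 arrays in each group, adjusted p = 0.588 in limma). Timp2 read 1127, 467.2 and 438.7 against 2227, 752.6 and 1247 in pretreated cells, lower in each letter, with a log2 change of -1.04 ± 0.41 (standard error, 3 arrays in each group, adjusted p = 0.198 in limma).

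**Figure D2:**
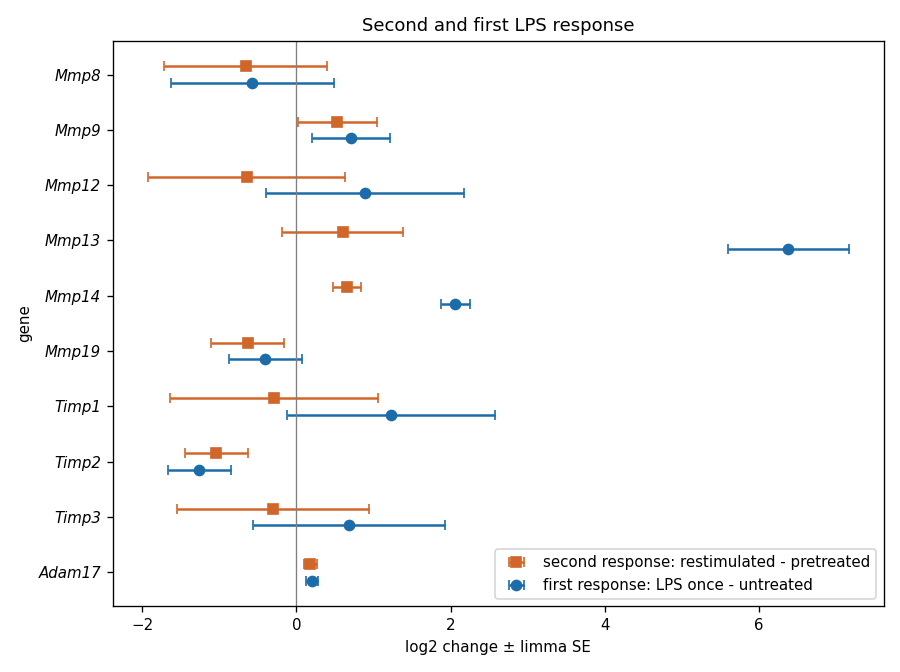
Log2 change of each gene in the second response (restimulated minus pretreated) and the first response (LPS once minus untreated), with limma's standard error. Mmp13 had 0.60 in the second and 6.39 in the first response, and Mmp14 had 0.66 and 2.06.

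The interaction, the second response minus the first, tested whether they differed. It was called lower for 2 of the 10 genes, Mmp13 and Mmp14, where 1.44% of all genes were, and higher for 0, where 1.23% were. None of the 10 had a higher second response at an unadjusted p under 0.05 in limma. The median log2 difference was -0.61 over the 10 genes, against -0.02 over all genes. Apart from Mmp13 and Mmp14, no gene of the 10 had a limma adjusted p under 0.76.

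For Mmp13 the difference was -5.79 ± 1.11 on the log2 scale (standard error, 3 arrays in each group, adjusted p = 0.0226 in limma). It was -5.87 in A, -5.32 in B and -6.17 in C. For Mmp14 the difference was -1.40 ± 0.26 (standard error, 3 arrays in each group, adjusted p = 0.022 in limma), and the letters spread more, with -0.57 in A, -1.64 in B and -1.997 in C. Its next brightest probe set had a difference of -1.34 and was not called (limma adjusted p = 0.285). The third probe set had -1.64 and was called (limma adjusted p = 0.0401). Leaving out LPS once B, LPS once C, untreated A or untreated C ended the Mmp13 call, at adjusted p from 0.0503 to 0.0681. Leaving out LPS once B, LPS once C, pretreated C or untreated C ended the Mmp14 call, at 0.0518 to 0.06. These fits had no replicate block. On all arrays with the block, the limma adjusted p was 0.00531 for Mmp13 and 0.0209 for Mmp14.

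The level after LPS, restimulated against LPS once, set both stimulated groups side by side. Mmp9 was called higher, 1 of the 10 genes, where 2.48% of all genes were, and Mmp13 lower, also 1 of 10, where 3.18% were. The median log2 difference was -0.38 over the 10 genes and -0.0029 over all genes. The levels of Mmp9 and Mmp13 thus differed in opposite directions. The second response of Mmp9 minus its first was -0.18 ± 0.72 (standard error, 3 arrays in each group, adjusted p = 0.95 in limma). Mmp14 stood at a like level in both groups, 3853 ± 439 in restimulated cells and 3431 ± 355 in cells given LPS once (SD, n = 3 each).

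Mmp13 stood at 411.5, 1683 and 463.2 intensity units in restimulated cells, against 6957, 6792 and 7146 in cells given LPS once. Its log2 difference was -3.31 ± 0.78 (standard error, 3 arrays in each group, adjusted p = 0.0195 in limma), or 9.92-fold lower. The call was lost without LPS once B, LPS once C or restimulated A, at adjusted p from 0.0539 to 0.0631. Mmp9 had 723.3, 777.3 and 408 in restimulated cells and 185.8, 117.9 and 37.2 in cells given LPS once, a log2 difference of 2.48 ± 0.51 (standard error, 3 arrays in each group, adjusted p = 0.0102 in limma), or 5.57-fold higher. The groups did not overlap, and the second probe set was called with a difference of 2.71. On the 6 arrays of these groups alone the Mmp9 call was lost (limma adjusted p = 0.065). For Mmp14 the difference was 0.17 ± 0.19 (standard error, 3 arrays in each group, adjusted p = 0.642 in limma).

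Pretreated cells had a long exposure that had ended, and cells given LPS once a single late one, so time and rest both differ between them. Mmp9 was called higher, 1 of the 10 genes, where 8.87% of all genes were, and Mmp13 lower, 1 of 10, where 4.24% were. Mmp13 was 15-fold lower in pretreated cells, a log2 difference of -3.91 ± 0.78 (standard error, 3 arrays in each group, adjusted p = 0.00389 in limma), and this call held under every alternative that was run. Mmp9 was 3.86-fold higher, a log2 difference of 1.95 ± 0.51 (standard error, 3 arrays in each group, adjusted p = 0.0159 in limma), which was lost without pretreated B (adjusted p = 0.059). Adam17 differed by -0.34 ± 0.08 (standard error, 3 arrays in each group, adjusted p = 0.0105 in limma), under the 2-fold minimum, with 2697, 3283 and 3071 in pretreated cells and 3543, 3804 and 4121 in cells given LPS once. Restimulated cells had 3539, 3451 and 3240, and no comparison called Adam17. The median over the 10 genes was -0.32, and -0.03 over all genes.

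**Figure D3:**
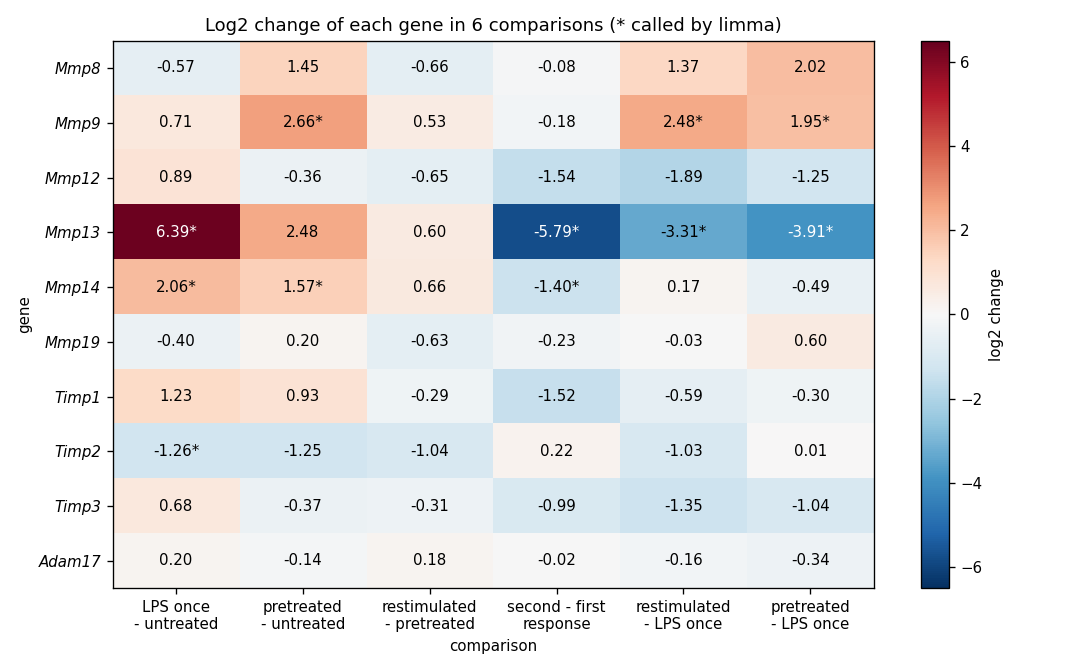
Log2 changes of the 10 genes in the 6 comparisons, written in the cells and coloured from blue (lower) to red (higher), with a star where limma called the change. Mmp13, Mmp14 and Mmp9 hold 10 of the 11 stars, and Timp2 holds 1.

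Read across the groups, the enzymes that changed followed different orders. Mmp13 was highest after LPS once, and its pretreated and restimulated values overlapped. Mmp14 was lowest in untreated cells, its pretreated arrays overlapped those given LPS once, and these overlapped the restimulated ones. Mmp9 averaged 636.2 ± 199 in restimulated, 439.3 ± 172 in pretreated, 113.7 ± 74.4 in LPS once and 57.6 ± 33.6 in untreated cells (SD, n = 3 each), with overlap between restimulated and pretreated and between LPS once and untreated. Timp2 was lowest in restimulated cells, at 677.7 ± 389.6, and highest in untreated cells, at 3093 ± 393.1 (SD, n = 3 each), and its restimulated arrays overlapped both other LPS groups. In the fit with the replicate letter as a block none of the 11 calls was lost.

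Mmp8, the neutrophil collagenase, and Mmp12 had wide spreads, and replicate B set them. Mmp8 read 183.6, 2138 and 332 in restimulated, 250.9, 3000 and 713.4 in pretreated, 168.7, 429.2 and 90.0 in LPS once and 237.9, 571.2 and 176.7 in untreated cells. B was the highest letter in all groups. Between pretreated cells and cells given LPS once the difference was 2.02 ± 1.06 (standard error, 3 arrays in each group, adjusted p = 0.197 in limma), with 0.53 in A, 2.76 in B and 2.78 in C. With the replicate letter as a block it was called (limma adjusted p = 0.0153), so that 2 of the 10 genes were higher, where 9.11% of all genes were.

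Neutrophils are a main source of Mmp8. The 7 neutrophil markers summed to 451.5, 386, 1520 and 1170 on the restimulated, pretreated, LPS once and untreated B arrays. The members differed there: Camp read 213.6, 173.0, 208.2 and 106.7 on the same 4 arrays, and Ngp 121.4, 104.5, 959.2 and 745.3. On the A arrays the 7 markers summed to 187.1 to 305.6 and on the C arrays to 273.9 to 550.1. The part of neutrophils in the Mmp8 values was not tested. Mmp12 read 151.6, 3047 and 108 in restimulated, 254.7, 3444 and 245.6 in pretreated, 1348, 1670 and 1404 in LPS once and 1283, 375.4 and 999.6 in untreated cells. Pretreated over untreated, it changed by -2.26 in A, 3.14 in B and -1.96 in C, so that B went against the other letters. Its log2 change was -0.36 ± 1.28 (standard error, 3 arrays in each group, adjusted p = 0.961 in limma). Pretreated and restimulated Mmp13 also had its highest value on B.

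Timp1 and Timp3 followed the replicate letter more than the treatment. Timp1, an inhibitor of most secreted metalloproteinases, read 1052, 2432 and 273.6 in restimulated, 1521, 2345 and 366.9 in pretreated, 2625, 2954 and 313.4 in LPS once and 1177, 1896 and 72.4 in untreated cells. The C array was the lowest of each group, at 72.4 to 366.9 over the 4 groups, and A and B ranged from 1052 to 2954. Timp3, which binds to the matrix and also blocks Adam17, read 135.7, 319.8 and 32.9 in restimulated, 300.7, 305.2 and 30.4 in pretreated, 548.9, 937.3 and 60.6 in LPS once and 299.1, 557.1 and 39.8 in untreated cells. Its C arrays, at 30.4 to 60.6, were the lowest of each group.

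The collagen genes Col1a1, Col1a2 and Col3a1, defining markers of fibroblasts, split the same way. Col1a1 was 507.5 to 1991 on the 8 A and B arrays and 37.8 to 42.3 on the 4 C arrays, Col1a2 was 1399 to 4520 and 54.3 to 127, and Col3a1 was 391.5 to 1367 and 31.9 to 40.2. Among the other stromal markers, Cxcl12 split too, at 63.45 to 469.9 on the A and B arrays and 28.8 to 42.7 on the C arrays. Dcn, Pdgfra and Pdgfrb overlapped between the C arrays and the rest, and Lum stayed at 11.9 to 17.3 throughout. In pooled RNA, fewer cells of a type and less RNA per cell cannot be told apart. The part of such cells in the Timp1 and Timp3 values was not tested.

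**Figure D4:**
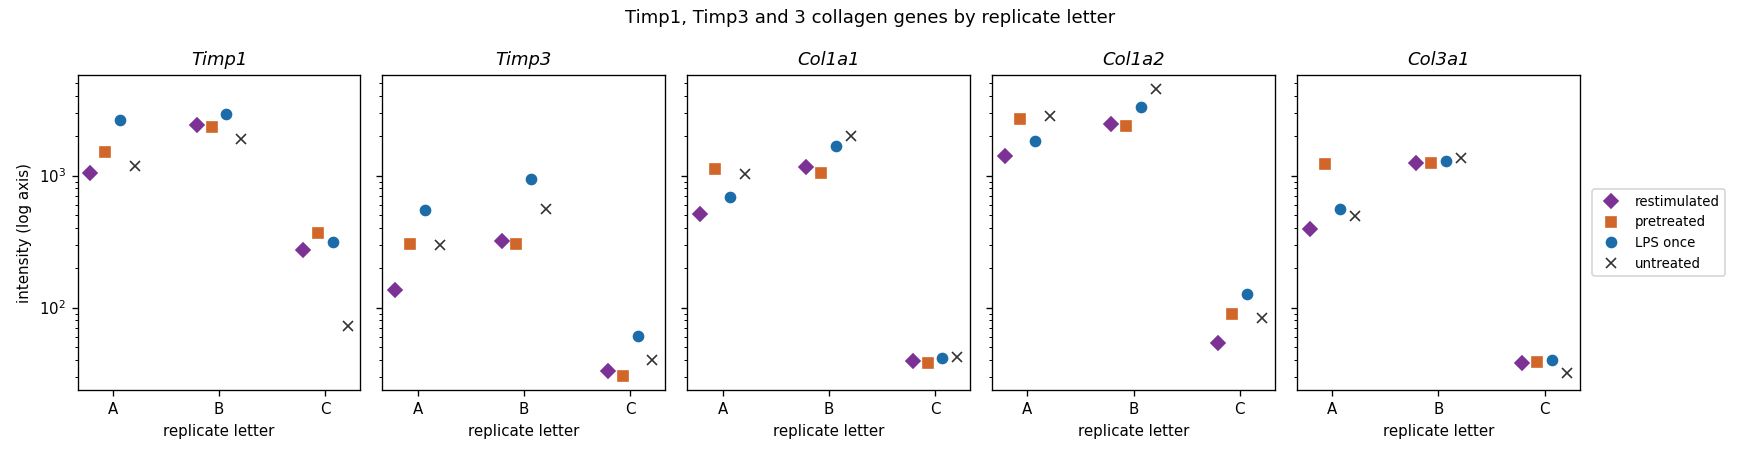
Intensity (log axis) of Timp1, Timp3 and 3 collagen genes on the 12 arrays, by replicate letter, with a mark per group. On the C arrays Timp1 was 72.4 to 366.9 and Timp3 30.4 to 60.6, and the 3 collagen genes reached at most 127 there.

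Without a block neither gene was called in any comparison. For the first response Timp1 had a log2 change of 1.23 ± 1.35 (standard error, 3 arrays in each group, adjusted p = 0.512 in limma). Within letters the change was 1.15 in A, 0.64 in B and 1.90 in C, and with the letter as a block it was 1.23 ± 0.37 and called (limma adjusted p = 0.0319). This made 3 of the 10 genes higher in that fit, where 4.18% of all genes were. Of the 8 stromal markers, 1 was called higher in the same comparison, Pdgfrb, and their summed intensity was 3957, 7536 and 919.6 after LPS once against 4980, 8769 and 271.2 in untreated cells. The sum was lower in A and B and higher in C, and Timp1 was higher in every letter. The part of these markers in the Timp1 change was not tested. Most of the rise of the sum in C came from Pdgfrb. It read 325.6, 764.3 and 588.7 after LPS once against 95.4, 279.1 and 14.6 in untreated cells.

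Timp3 in restimulated cells was below its level after LPS once in every letter, by -1.90 in A, -1.51 in B and -0.65 in C on the log2 scale. Its difference was -1.35 ± 1.24 without the block (limma adjusted p = 0.558) and -1.35 ± 0.25 with it (standard error, 3 arrays in each group, adjusted p = 0.00945 in limma). With the block it joined Mmp13 among the genes called lower, 2 of 10, where 3.71% of all genes were. Between pretreated cells and cells given LPS once it differed by -1.04 ± 0.25 with the block (standard error, 3 arrays in each group, adjusted p = 0.0144 in limma), again 2 of 10 lower with Mmp13, where 4.57% of all genes were. The summed stromal markers were 2541, 5399 and 294.8 in restimulated and 5355, 5060 and 324.9 in pretreated cells, against 3957, 7536 and 919.6 after LPS once. They were lower than after LPS once in every letter except A of the pretreated cells, and their part in the Timp3 differences was not tested. In C, Pdgfrb made up 588.7 of the 919.6 after LPS once, and read 40.0 in restimulated and 21.7 in pretreated cells. The other 3 probe sets of Timp3 had differences of -0.63 to -1.15 between restimulated cells and cells given LPS once.

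Mmp13, Mmp12 and Mmp8 lie in a row of 10 metalloproteinase genes on chromosome 9, of which 9 were measured. By position the row begins with Mmp13, Mmp12, Mmp1b, Mmp3, Mmp1a, Mmp10 and Mmp8. Mmp10, stromelysin 2, read 83.9, 182.6 and 97.6 in cells given LPS once and 25.0, 21.8 and 23.7 in untreated cells, a log2 change of 1.73 ± 0.21 (standard error, 3 arrays in each group, adjusted p = 0.000257 in limma). Its second response differed from the first by -1.60 (limma adjusted p = 0.022). Mmp3, stromelysin 1, had 19.3, 197.9 and 42.3 against 13.65, 12.96 and 11.12 in untreated cells, and a log2 change of 1.41 ± 0.54 (standard error, 3 arrays in each group, adjusted p = 0.0702 in limma). With the replicate block Mmp3 was called higher (limma adjusted p = 0.0296). Mmp1a, Mmp1b and Mmp20 stayed under 18 on all arrays. The first responses in the row thus ran from 6.39 for Mmp13 to -0.57 for Mmp8.

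Other genes of the same system were counted from lists, to be read against the 3.9% of all genes called higher and 9.1% called lower in the first response. Of 14 other metalloproteinases and inhibitors measured, 1 rose in the first response, Mmp10, or 2 with the replicate block, Mmp3 being added, where 4.18% of all genes were higher. No group mean reached 100 for 11 of the 14. Of 21 other ADAM and ADAMTS proteases, 1 rose, Adamts4, an aggrecanase, by 4.21, and 1 fell, Adamts10, by 1.90 on the log2 scale. Adamts4 had 560, 766 and 924.5 intensity units after LPS once against 20.8, 33.1 and 20.7 in untreated cells, and its second response differed from the first by -3.79 (limma adjusted p = 0.0013). Of 20 genes listed as partners or shed substrates of Adam17, 6 rose and 3 fell in the first response. Tnf changed by 4.32, and Mertk, a receptor for dying cells that is also among the macrophage markers, by -3.54. The adhesion molecules Icam1 and Vcam1 changed by 2.91 and 2.80. With the replicate block 4 fell, where 9.25% of all genes did. The interaction was called lower for 5 and higher for 1 of them, where 1.44% and 1.23% of all genes were, and lower for 6 with the block, where 1.86% were. Among the lower ones were Vcam1 at -2.77, Cx3cl1 at -1.24 and Rhbdf2, the carrier that brings Adam17 to the cell surface, at -1.23 (limma adjusted p = 0.0157). The 1 called higher was Tspan14, at 1.45 (limma adjusted p = 0.0372), a listed gene whose partnership with Adam17 was not examined. Rhbdf2 read 2185, 2805 and 2613 after LPS once, against 513.9, 544.2 and 605.1 in untreated cells. Tspan14 read 315.5, 230.5 and 221.6 after LPS once against 1433, 1428 and 1493 in untreated cells.

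Among 15 activators and clearance factors of metalloproteinases, 4 rose and 1 fell in the first response, where 3.9% and 9.1% of all genes did. Lcn2 rose by 5.15, Serpinb2, an inhibitor of plasminogen activators, by 4.91, Plat, a plasminogen activator, by 3.83 and Plaur, the urokinase receptor, by 2.99. In pretreated against untreated cells 1 of the 15 was called higher, Lcn2 at 6.28, where 0.291% of all genes were. Of 12 matrix proteins, 1 was called in the first response, Vcan, the proteoglycan versican, at 2.95, where 3.9% of all genes were higher. With the replicate block Vcan was also called higher in pretreated than in untreated cells, by 2.32 (limma adjusted p = 0.0183), and Fn1, fibronectin, lower, at -1.08 (limma adjusted p = 0.0299), where 0.55% of all genes were higher and 0.533% lower. The interaction of Vcan was called with the block too, at -3.004 (limma adjusted p = 0.0174). Fn1 was lowest on the C array of each group, as the collagen genes were. After the second LPS, limma called 0 of the 14 other metalloproteinases and inhibitors, 1 of them higher at an unadjusted p under 0.05. Of the Adam17 list 2 were called higher in that comparison, Tnf at 3.71 and Icam1 at 1.78, where 0.665% of all genes were. None was called lower, with 4 lower at an unadjusted p under 0.05, and with the block 2 were, where 1.48% of all genes were.

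Likeness to other genes was measured by Pearson's r over the 12 arrays among 8935 genes with a group mean of at least 100. It describes these arrays, whose values also went with the replicate letter. Mmp13 was most like Slc2a6 (0.97), Gpr85 (0.96) and Car13 (0.96). Mmp14 was most like Sod2 (0.98), Fpr2 (0.98) and Slc31a1 (0.97), and Mmp9 most like Cd302 (0.99), Mif (0.97) and Bst1 (0.95). Timp2 was most like Niban1 (0.97), Suclg2 (0.96) and Il10rb (0.96). For Timp3 the leading genes were Cdh11 (0.99), Loxl1 (0.98) and Pcolce (0.98), with 0.96, 0.90 and 0.935 on the 8 A and B arrays. For Timp1 they were Serpinf1 (0.94), Cyp1b1 (0.94) and Mxra8 (0.93), which fell to 0.55, 0.74 and 0.55 on those 8 arrays, so the likeness was weaker without the C arrays. Mmp8 was most like Parp3 (0.95), Clec4n (0.95) and 1110008P14Rik (0.93), and Mmp12 most like Abcb4 (0.89), Qpct (0.87) and Slc41a2 (0.85).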

How the data were processed

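The deposited table holds intensities on a linear scale, 1 value per probe set and array, for 45101 probe sets. The program, background correction and scaling behind these intensities are not stated in the labels. The linear scale follows from their range. Per the labels' protocols, RNA was isolated with TriFast and labelled by the Affymetrix procedure. Platform annotation gave 1 symbol for 34945 probe sets, several for 932 and none for 9160, and 64 were controls. The RefSeq table of GRCm38.p6 gave current symbols by Entrez identifier. Each gene took the probe set with the highest mean of log2(intensity + 16), which left 18193 genes.

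Group means on that scale were fitted with limma 3.58.1 in R 4.3.3 over all 12 arrays, with no further normalization. The pseudocount of 16 understates changes of dim genes. No detection calls were used, and 3 arrays per group limit the precision. The fit was tested on simulated data. The genes and lists were chosen with earlier results of these data known. Lists were named by a rule, at most 4 called members with the largest change or, where fewer than 2 were called, the 2 with the largest change, and not all of these are printed. Likeness names the 3 genes with the highest r for each gene whose group means span at least 1 on the log2 scale.

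Replicate letters were checked for pairing by correlating deviations from the group means. The 18 array pairs that share a letter correlated at 0.25 to 0.66, and the 36 array pairs of unlike letter at -0.48 to 0.01. The letters were therefore taken to pair the arrays. The fit with a replicate block is given where it changes the call of 1 of the 10 genes or a printed list result, and for some calls near the threshold. Standard errors and p-values printed without mention of the block ignore this pairing. So do the fits with 1 array left out, unless the block is named. Alternatives were other pseudocounts, quantile normalization, the replicate block, a filter on dim genes, the next probe set, only the groups compared, each array left out and an intensity-dependent prior.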

Additional observations from a re-analysis of the deposited data

Results flagged for a closer look

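The second LPS response of Mmp13 and of Mmp14 differed from the first by a tested interaction. For Mmp13 the difference was -5.79 on the log2 scale and lower in 3 of 3 letters. For Mmp14 it was -1.40, also lower in 3 of 3 letters. For each gene the call was lost when any of 4 arrays was left out. The next brightest Mmp14 probe set was not called (limma adjusted p = 0.285), and the third was (0.0401).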

How the results depend on the processing

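Of 11 called changes, 3 kept their call under every alternative run: Mmp13 and Mmp14 in the first response and Mmp13 between pretreated cells and LPS once. None of the 11 changed direction. With 1 array left out, the count of genes called lower ranged from 0 to 1 in the first response, from 0 to 2 in the interaction and from 0 to 1 between restimulated cells and LPS once. The count called higher ranged from 1 to 2 for pretreated against untreated cells and from 0 to 1 for pretreated cells against LPS once. A pseudocount of 64 left 1 gene higher in pretreated than in untreated cells, and with only the arrays of the groups compared 0 were higher in restimulated cells than after LPS once. With the replicate block, 2 genes were lower in restimulated cells than after LPS once, and 2 were higher and 2 lower in pretreated cells than after LPS once. The same counts, 2, 2 and 2, came from the block with restimulated C left out, an alternative chosen after seeing the data, which also called Mmp13 in pretreated against untreated cells (limma adjusted p = 0.045) and Timp3 in the interaction (0.0474). Timp2 was called lower in restimulated cells than after LPS once without restimulated A (0.0313). The causes were not tested.

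Changes of sign numbered 56, all in uncalled values. The difference of Mmp19 between restimulated cells and LPS once became 0.0363 with a pseudocount of 1, 0.0651 with the next probe set and 0.0479 with the block and 11 arrays. The interaction of Adam17 became 0.13 after quantile normalization, 0.0872 with the next probe set and 0.0394 with the block and 11 arrays. The next probe set also gave 0.035 for the interaction of Mmp19, 0.021 for Adam17 between restimulated cells and LPS once, and -0.21 for Timp2 between pretreated cells and LPS once. The block with 11 arrays gave 0.032 for Mmp12 in the second response. The other 46 came from leaving out 1 array. In the first response, the log2 difference ran for Timp1 from -0.14 to 2.26, for Timp3 from -0.30 to 1.76 and for Mmp19 from -0.91 to 0.13. For pretreated against untreated cells, the log2 difference ran for Timp3 from -1.34 to 0.56, for Timp1 from -0.44 to 1.78, for Mmp12 from -1.59 to 0.27 and for Mmp19 from -0.0542 to 0.36. In the second response, the log2 difference ran for Timp3 from -1.24 to 0.43, for Mmp8 from -1.67 to 0.27, for Mmp12 from -2.12 to 0.59, for Timp1 from -1.06 to 0.53 and for Mmp13 from -0.0367 to 1.504. For the second minus the first response, the log2 difference ran for Mmp8 from -1.09 to 0.84, for Mmp9 from -0.72 to 0.24, for Mmp19 from -0.76 to 0.28, for Adam17 from -0.10 to 0.0406 and for Timp2 from -0.21 to 0.62. For restimulated cells against LPS once, the log2 difference ran for Mmp19 from -0.56 to 0.48 and for Timp1 from -1.62 to 0.24. For pretreated cells against LPS once, the log2 difference ran for Timp1 from -1.33 to 0.47 and for Timp2 from -0.39 to 0.38. The next probe set gave no count of genes, since 4 genes have only 1, and the interaction was not run on fewer groups because it needs all 4.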
